A study of Mus musculus with 3 samples.

Results

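The host genes of small nucleolar RNAs were examined in CD4+ T cells sorted from mouse spleen, each cell sequenced on its own. The set was given as a list of 9 gene symbols, *Gas5*, *Snhg1*, *Snhg3*, *Snhg4*, *Snhg5*, *Snhg6*, *Snhg8*, *Snhg12* and *Snhg15*. They were listed by gene name, with earlier results of these data known. Of these 9, the feature table of the libraries, which lists 31053 genes, has a row for 2, *Snhg6* (ENSMUSG00000098234) and *Snhg12* (ENSMUSG00000086290). The other 7 have no row in it under the listed name and were not analysed here, so nothing below bears on their expression. Each library holds 1 condition. Unstimulated WT cells came from *Ift20* f/f mice without Cre, were taken at 0 h and were kept in DPBS, a buffered saline. Stimulated WT cells came from the same genotype and spent 24 h with antibodies to CD3, part of the T cell receptor complex, and to CD28, its main costimulatory receptor, each at 1 μg/mL. Stimulated IFT20-KO cells had the same treatment and came from *Ift20* f/f CD4 cre mice, in which the *Cd4* promoter drives Cre, so that *Ift20* is lost from cells that have passed through a CD4-expressing stage in the thymus. All mice were C57BL/6 and carried the floxed *Ift20* allele, and all cells were enriched for naïve CD4+ T cells and sorted as 7AAD-CD3+CD4+. The labels give neither the age of the mice nor how many were used. The paper's methods state male sex and a range of ages in weeks for the mice of all its experiments.

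A small nucleolar RNA, or snoRNA, is a short stable RNA of the nucleolus that guides the chemical modification of ribosomal RNA, box C/D snoRNAs directing methylation of the ribose and box H/ACA snoRNAs the conversion of uridine to pseudouridine. In mammals most snoRNAs have no promoter of their own and are cut out of introns that have been spliced from a host transcript. Some hosts encode proteins, often of the ribosome, and others, the *Snhg* genes and *Gas5*, leave a spliced RNA without a long reading frame, which is often turned over quickly by nonsense-mediated decay when ribosomes engage it. Many host transcripts begin with a cytidine and a run of pyrimidines, the 5′ terminal oligopyrimidine or TOP motif, through which mTOR signalling sets their translation. T cells that leave quiescence are known to enlarge their nucleoli and make more ribosomes.

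The UMIs counted for a host gene come from the host transcript, and the snoRNAs inside it were not measured. In the GENCODE M21 annotation of GRCm38, *Snhg6* lies at chr1:9941959-9944118 on the minus strand, spans 2160 bp and has 5 transcripts. It holds the box C/D snoRNA *Snord87*, which is intronic in 5 of the 5. *Snhg12* lies at chr4:132308623-132311024 on the plus strand, spans 2402 bp and has 10 transcripts. It holds 4 snoRNAs, the box H/ACA RNAs *Snora16a*, *Snora44* and *Snora61* and the box C/D RNA *Snord99*, of which *Snora61* is intronic in 5 and exonic in 5 of the 10 transcripts. These snoRNAs are shown because they are the product that the hosts are named for and because they tell both hosts apart, 1 guide of the methylation class in the first and mostly pseudouridylation guides in the second. They are given 5′ to 3′ from the GENCODE M21 transcripts, as DNA letters. Capitals mark the C box (TGATGA, searched in the first 20 bases) and the D box (CTGA, searched in the last 15 bases) of the C/D RNAs and the ACA triplet 3 bases before the end of the H/ACA RNAs, all on the RNA's own strand and without overlap.
Snord87: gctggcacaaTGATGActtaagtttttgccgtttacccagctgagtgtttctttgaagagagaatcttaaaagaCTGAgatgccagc
Snord99: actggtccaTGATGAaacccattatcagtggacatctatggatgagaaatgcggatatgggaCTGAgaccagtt
Snora16a: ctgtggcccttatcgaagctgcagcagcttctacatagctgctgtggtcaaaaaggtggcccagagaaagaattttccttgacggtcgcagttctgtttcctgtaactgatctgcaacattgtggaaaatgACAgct
Snora44: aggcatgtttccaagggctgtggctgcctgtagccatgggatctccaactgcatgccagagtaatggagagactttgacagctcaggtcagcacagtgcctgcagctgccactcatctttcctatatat
Snora61: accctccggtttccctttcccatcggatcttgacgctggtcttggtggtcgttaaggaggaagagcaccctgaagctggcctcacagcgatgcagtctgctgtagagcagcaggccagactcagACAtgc
*Snord87* is 87 nt long and lies at chr1:9942463-9942549, and *Snord99* is 74 nt long and lies at chr4:132310691-132310764. *Snora16a* (chr4:132309464-132309600, 137 nt), *Snora44* (chr4:132309941-132310069, 129 nt) and *Snora61* (chr4:132310240-132310369, 130 nt) follow each other along *Snhg12* in that order. Of the 98 annotated *Snord* genes, 71.4% hold the searched C box and 93.9% the searched D box, and 83.3% of 42 *Snora* genes have ACA at that place. *Snora44* as annotated does not have it there.

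The first bases of an annotated transcript of each host are shown as well, because the sequence of a TOP gene is read from its transcript start. The capitals mark the bases that the 2 genes share.
Snhg6: CTTTCTCGgcagcgccgtagagcgc
Snhg12: CTTTCTCGcttcatccgcggtccct
Both transcripts shown open with a run of 7 pyrimidines that begins with a C, CTTTCTC, and share their first 8 bases. Starts within 2 bases of this one are annotated for 2 of the 5 *Snhg6* and 5 of the 10 *Snhg12* transcripts, and the others start elsewhere. In both genes some of these near starts lie at the T after that C and so lack it. The *Snhg12* start in the RefSeq promoters used below lacks it too. The 8 letters CTTTCTCG, searched after the sequences had been seen, lie on the sense strand between 15 bases before and 35 bases after the start in 16 of 32817 RefSeq promoters of GRCm38.p6, or 0.0488%, and on either strand anywhere in the 300 bases of 0.576% of them. These promoters cover 7 of the 9 listed genes, without *Snhg6* and *Snhg4*, so the promoter of *Snhg6* was not searched. Of the 7, *Snhg12* alone has a match. A match describes letters and was not tested as a TOP motif.

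A cell was used if it showed over 200 genes and if mitochondrial RNA gave less than 15% of its counts, which 8031 unstimulated WT, 9903 stimulated WT and 13920 IFT20-KO cells did, with 37133949, 116979076 and 106435143 UMIs in all. A unique molecular identifier, or UMI, stands for 1 captured RNA molecule. The median UMIs per cell were 4627, 12167 and 5014.5, and 16.6%, 21.7% and 39.6% of the cells had under 3000 UMIs. Between 125 and 207 cell barcodes were shared by pairs of libraries, at most 2.01% of a library. All 6 T cell markers (*Cd3d*, *Cd3e*, *Cd3g*, *Cd4*, *Trac*, *Cd5*) were detected in each library, with summed levels of 3560 to 3843 CPM, whereas *S100a8* and *S100a9* were at 0 in each. The summed level was 13.3 to 32.9 CPM for 5 CD8 and NK markers, 76.5 to 80.7 CPM for 7 myeloid markers, of which *Cst3* alone gave 76.3 to 80.3 CPM, and at most 0.00940 CPM for 5 erythroid markers. With 1 library per condition, no difference below has a replicate, no test was possible, and a difference between conditions cannot be told apart from one between libraries. The unstimulated cells were taken at 0 h, while the stimulated cells also spent 24 h in culture. In the comparisons of stimulation, the effect of this culture cannot be told apart from that of the antibodies. Every interval is at the 95% level and covers counting error only.

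*Snhg6* was the host that differed most with stimulation. Its level, as UMIs per 1000000 of the library (CPM), was 20.1 in unstimulated WT cells (interval 18.7 to 21.6, 748 UMIs), 116 in stimulated WT cells (114 to 118, 13615 UMIs) and 71.2 in stimulated IFT20-KO cells (69.7 to 72.9, 7583 UMIs). None of the 3 intervals overlaps another, and the unstimulated library is the low one. Stimulated over unstimulated WT, the log2 ratio was 2.53 (2.42 to 2.64), or 5.78-fold. Genes whose UMIs summed to 10 or more in a pair of libraries are called tested here, and of 13297 such genes 624 had a higher log2 ratio, and the median of all was -0.09. *Snhg6* ranked 5261 among 15268 detected genes before stimulation and 1274 of 16064 after it.

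*Snhg12* was the more abundant of both in resting cells and differed little in CPM. Its level was 50.2 CPM in unstimulated WT cells (48.0 to 52.6, 1865 UMIs), 60.9 CPM in stimulated WT cells (59.5 to 62.4, 7127 UMIs) and 62.7 CPM in stimulated IFT20-KO cells (61.2 to 64.2, 6674 UMIs). The unstimulated level lies below the other 2, whose intervals overlap. The log2 ratio with stimulation was 0.28 (0.20 to 0.35), or 1.21-fold, with 4998 of the 13297 genes higher. These levels are shares of all UMIs, of which the libraries held unlike numbers per cell. As a mean per cell, *Snhg12* had 0.232 UMIs in unstimulated WT, 0.720 in stimulated WT and 0.479 in IFT20-KO cells. *Snhg6* supplied 28.6% of the UMIs of both hosts together before stimulation (26.9 to 30.4), 65.6% in stimulated WT cells (65.0 to 66.3) and 53.2% in IFT20-KO cells (52.4 to 54.0), so the order of the 2 levels turned over. A comparison of levels between genes by UMIs takes no account of length, and none was applied because only 1 end of a transcript is read. By a fold rule of 1.5, 1 of the 2 hosts was higher in stimulated WT cells and 0 were lower, beside 28.6% and 34.3% of all tested genes. At 2-fold the counts were the same, beside 19.3% and 23% of all tested genes.

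**Figure D1:**
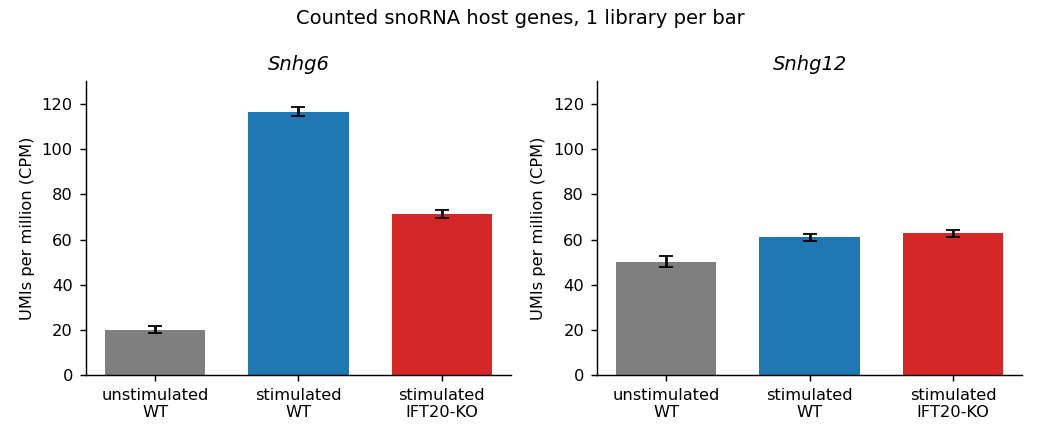
Levels of *Snhg6* (left) and *Snhg12* (right) in UMIs per 1000000 (CPM, vertical axis from 0) in the 3 libraries, 1 bar each, with exact Poisson 95% intervals that cover counting error only. *Snhg6* stands at 20.1, 116 and 71.2 CPM, while the 3 bars of *Snhg12* lie between 50.2 and 62.7 CPM.

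More cells held *Snhg6* after stimulation, and more of them held several molecules. *Snhg6* had at least 1 UMI in 8.69% of unstimulated WT cells, 43.3% of stimulated WT cells and 27.5% of IFT20-KO cells. With each cell thinned to 1400 UMIs, which left out 801, 421 and 0 shallower cells, the shares were 2.71% (2.35 to 3.11), 10.2% (9.62 to 10.8) and 7.35% (6.92 to 7.80), so the order stayed. The highest count in a cell was 3 UMIs of *Snhg6* in unstimulated WT cells and 36 in stimulated WT cells, where 1610 of the 9903 cells had 3 or more. *Snhg12* was found in 20.3%, 43.3% and 34.0% of cells, and in 7.05% (6.47 to 7.67), 9.27% (8.69 to 9.87) and 10.3% (9.84 to 10.9) after thinning. For this gene the order of the stimulated libraries turned with the thinning, and the thinned intervals of these 2 libraries overlap. Both RNAs were seen together in 170 unstimulated WT, 2486 stimulated WT and 1801 IFT20-KO cells, or 2.12%, 25.1% and 12.9%. No cell type known to lack these genes was present in the sort, so the share that free RNA gives was not measured.

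The targeted gene was examined before the knockout was compared. *Ift20*, a subunit of the intraflagellar transport complex B, stood at 64.4 CPM in unstimulated WT, 76.0 CPM in stimulated WT and 6.60 CPM in IFT20-KO cells. The log2 ratio of the knockout to stimulated WT was -3.52 (-3.64 to -3.41), in the direction the labels give.

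*Snhg6* was lower in stimulated IFT20-KO than in stimulated WT cells, 71.2 against 116 CPM, with a log2 ratio of -0.71 (-0.75 to -0.67), or 0.612-fold. The median of the 13504 tested genes was 0.14, and 2.70% of them had a lower ratio. For *Snhg12*, 62.7 against 60.9 CPM, the log2 ratio was 0.04 (-0.01 to 0.09) and lay 0.09 below that median. Scaling by median ratios in place of totals shifts each log2 ratio by -0.16 in this comparison, which turns the sign of *Snhg12* to -0.12, and by 0.13 in the comparison of stimulation. By the 1.5-fold rule, 1 of the 2 hosts was lower in the knockout, as were 3.27% of all tested genes, and 0 were higher, as were 13.4%. Neither passed 2-fold, a size that 1.67% of genes passed downward and 3.92% upward.

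The libraries also differ in how deep their cells were. Of the cells, 5.55% had 18000 UMIs or more in the knockout and 17.6% in stimulated WT, and these cells held 26.9% and 51.6% of the *Snhg6* UMIs. Cells were therefore compared within depth classes, a choice made after the values had been seen. Under 3000 UMIs, a class that holds 39.6% of the knockout cells, *Snhg6* had 43.6 CPM in the knockout against 42.9 CPM in WT (log2 ratio 0.02, -0.23 to 0.28), with medians of 2316 and 1788 UMIs per cell. At 9000 to 12000 UMIs it had 47.0 against 51.0 CPM (log2 ratio -0.12, -0.25 to 0.01), and both of these intervals held 0. At 21000 UMIs or more, where the medians were 23871 and 24131 UMIs per cell, it had 115 against 181 CPM (log2 ratio -0.65, -0.75 to -0.55), which is 1.57-fold lower. The difference thus passed 1.5-fold in the deepest class and not in the other 2. Of all genes, 9.61%, 4.64% and 5.36% were at least 1.5-fold lower in these 3 classes.

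Broader classes gave values in between. In cells of 9000 to 18000 UMIs, *Snhg6* had 71.2 CPM in the knockout against 92.0 CPM in WT (log2 ratio -0.37, -0.43 to -0.31), and in cells of 18000 UMIs or more 119 against 176 CPM (log2 ratio -0.57, -0.64 to -0.50). In cells of 3000 to 9000 UMIs the levels were 41.1 and 46.7 CPM, and the interval of the log2 ratio, -0.38 to 0.01, held 0. All of these 3 ratios fell short of 1.5-fold, and 4.14% (9000 to 18000), 4.23% (18000 or more) and 3.6% (3000 to 9000) of genes were at least that much lower. The knockout cells were the shallower ones in each of these classes. Their medians were 12317 against 13280 UMIs at 9000 to 18000, 20905 against 21516 at 18000 or more and 4807.5 against 7291 at 3000 to 9000. Narrower classes gave log2 ratios of -0.12 at 9000 to 12000, -0.14 at 12000 to 15000 and -0.41 at 15000 to 18000 UMIs. The part of this gap in depth was not tested. With only the cells under 5% mitochondrial UMIs kept, the log2 ratio was -0.68 (-0.72 to -0.63), and 3.66% of genes were at least 1.5-fold lower.

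*Snhg12* had no single direction over depth. Its log2 ratio, knockout over WT, was -0.47 (-0.60 to -0.33) under 3000 UMIs, with 119 against 165 CPM, and 0.61 (0.42 to 0.79) in cells of 3000 to 9000 UMIs, with 68.2 against 44.8 CPM. It was -0.05 (-0.12 to 0.02) at 9000 to 18000 and -0.20 (-0.31 to -0.10) at 18000 or more. Of all genes, 22.9% were at least 1.5-fold higher at 3000 to 9000 UMIs, where the knockout cells were shallower, with a median of 4807.5 UMIs against 7291 in WT.

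Stimulated and unstimulated WT cells were set side by side within depth classes too. At 9000 to 12000 UMIs, where the medians were close, 10650 and 10136 UMIs per cell, *Snhg6* had 51.0 CPM in 1631 stimulated against 23.4 CPM in 213 unstimulated cells (log2 ratio 1.13, 0.72 to 1.56), or 2.18-fold, which is less than the 5.78-fold over all cells. Under 3000 UMIs it had 42.9 against 11.6 CPM (log2 ratio 1.89, 1.26 to 2.57), with medians of 1788 and 1165 UMIs. Broader classes gave log2 ratios of 1.20 (1.00 to 1.39) at 3000 to 9000 UMIs and 2.01 (1.67 to 2.38) at 9000 to 18000, where the stimulated cells were deeper, with medians of 7291 against 4855 and 13280 against 10487 UMIs. The difference of *Snhg6* was past 2-fold in each of these 4 classes. At 9000 to 12000 UMIs, the unstimulated cells were all deeper than their library's median, 4627, and the stimulated cells all shallower than theirs, 12167. Doublets were not removed, and their part in this class was not tested. *Snhg12* had log2 ratios of 0.08 (-0.24 to 0.42) at 9000 to 12000 UMIs, 1.24 (0.98 to 1.51) under 3000, -0.16 (-0.33 to 0.02) at 3000 to 9000 and 0.35 (0.09 to 0.62) at 9000 to 18000, so its direction was not fixed. At least 1.5-fold higher were 24.1% of genes at 9000 to 12000 UMIs, 30.8% under 3000, 24.6% at 3000 to 9000 and 23.7% at 9000 to 18000.

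From 9000 UMIs upward, the level of *Snhg6* in stimulated WT cells was higher the more UMIs a cell had. In unstimulated WT cells it was 11.6 CPM (7.44 to 17.3) under 3000 UMIs, below the 20.4 CPM (18.7 to 22.3) at 3000 to 6000, and 20.2 at 6000 to 9000 and 23.4 at 9000 to 12000, with overlapping intervals from 3000 UMIs on. In stimulated WT cells it showed no order below 9000 UMIs, at 42.9, 64.1 and 42.0 CPM, and then went from 51.0 CPM at 9000 to 12000 UMIs over 84.3, 131 and 170 to 181 CPM in the 953 cells of 21000 UMIs or more. Between the first and the last of these classes the CPM differed 3.54-fold, and 10.2% of genes were at least 1.5-fold higher there. In IFT20-KO cells the same classes gave 47.0, 76.8, 99.0, 123 and 115 CPM, which is 2.45-fold from the first to the last, where 6.18% of genes passed 1.5-fold. Both stimulated libraries had overlapping intervals under 3000 UMIs and at 6000 to 12000 UMIs, such as 47.7 to 54.5 CPM in WT and 44.3 to 49.9 CPM in the knockout at 9000 to 12000. At 3000 to 6000 UMIs their counting intervals did not overlap. WT had 64.1 CPM (51.8 to 78.5) and the knockout 46.0 CPM (40.8 to 51.7), with medians of 4198 and 3555 UMIs per cell. From 12000 UMIs on they did not overlap either, though at 12000 to 15000 the nearest limits were 80.8 CPM in WT and 80.5 CPM in the knockout. Cells of one depth class differed more than counting gives. In stimulated WT cells of 12000 to 15000 UMIs the variance of the *Snhg6* count was 2.92 times its mean, where pure counting gives 1, while that of *Snhg12* was 1.33 times its mean. In the knockout at this depth the variance was 2.21 times the mean for *Snhg6* and 2.54 times for *Snhg12*. Without the 1 cell that held 42 *Snhg12* UMIs, the value for *Snhg12* was 1.19. The counting intervals of both hosts are therefore too narrow, also for their pooled levels. Where limits lie as close as at 3000 to 6000 and 12000 to 15000 UMIs, the lack of overlap does not set the libraries apart.

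*Snhg12* had its highest level in the shallowest cells. Under 3000 UMIs it stood at 69.7, 165 and 119 CPM in unstimulated WT, stimulated WT and IFT20-KO cells, against 40.3, 42.7 and 46.1 CPM at 9000 to 12000 UMIs. These shallow cells gave 22.5% of the knockout library's *Snhg12* UMIs and 8.92% of those of stimulated WT. From 9000 to 12000 UMIs upward the level climbed again, to 67.7 CPM in WT and 57.0 CPM in the knockout at 21000 UMIs or more. The shallow cells had a median of 7.80%, 10.3% and 5.74% mitochondrial UMIs, against 2.22%, 1.37% and 1.09% at 9000 to 12000 UMIs. *Malat1*, an abundant RNA retained in the nucleus, was likewise high there, at 17970, 9159 and 6316 CPM under 3000 UMIs and 3968, 1298 and 1304 CPM at 9000 to 12000. Of all genes, 55.7% in stimulated WT and 53% in the knockout were at least 1.5-fold higher in the shallow class, so the 3.85-fold and 2.58-fold of *Snhg12* are among many. *Snhg6* did not share this pattern, with 0.841-fold and 0.928-fold. The part of damaged cells in these values was not tested.

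**Figure D2:**
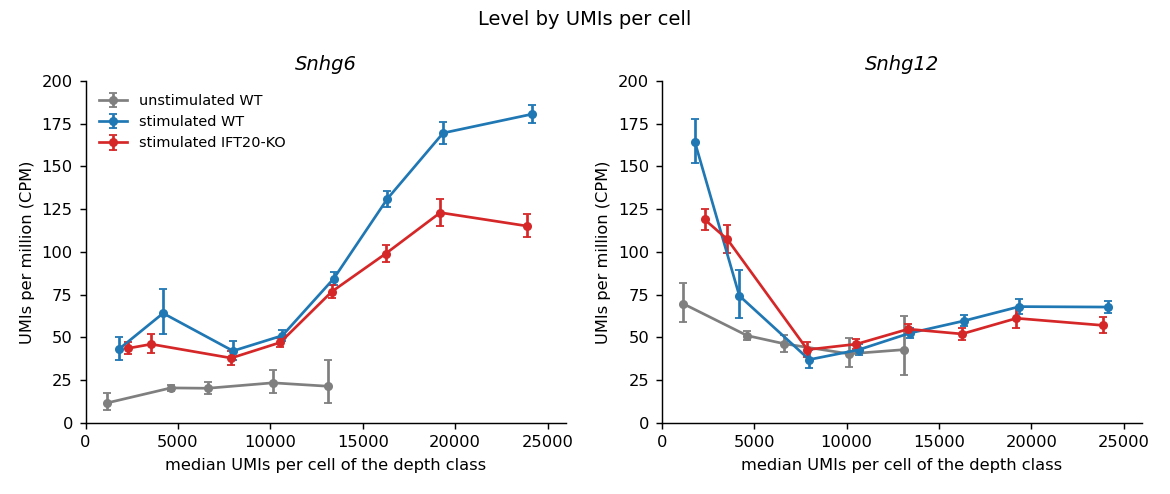
Level in UMIs per 1000000 (CPM, vertical axis) by depth class, each placed at the median UMIs per cell of its cells (horizontal axis), for *Snhg6* (left) and *Snhg12* (right), with exact Poisson 95% intervals. *Snhg6* climbs to 181 CPM in stimulated WT and 123 CPM in IFT20-KO cells from 9000 UMIs upward and stays between 11.6 and 23.4 CPM in unstimulated WT cells, while *Snhg12* is highest, up to 165 CPM, in cells under 3000 UMIs.

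A split by the share of mitochondrial UMIs gave the same contrast between the hosts. In cells with 5% or more mitochondrial UMIs, *Snhg12* stood at 110, 161 and 125 CPM in the 3 libraries, and in the others at 48.5, 57.4 and 55.8 CPM. *Snhg6* was lower in the cells with 5% or more, at 3.90, 43.2 and 42.0 CPM against 20.6, 119 and 74.5 CPM. These cells had medians of 1012, 1867 and 2471 UMIs and so overlap with the shallow class. The 6 cycling markers included *Mki67* and *Top2a*. Cells with 3 or more UMIs of them had 109 CPM of *Snhg6* in stimulated WT against 118 CPM in cells with none. In the knockout the levels were 80.4 against 68.5 CPM. These sets were not matched for depth, with medians of 18798 against 11287 UMIs in WT and 13639.5 against 3602 in the knockout. Within cells of 12000 to 15000 UMIs, those with *Mki67* had 96.2 against 84.1 CPM in WT (log2 ratio 0.19, -0.20 to 0.56). In the knockout they had 61.9 against 78.1 CPM (-0.34, -0.63 to -0.05). Neither split gave one direction over both libraries. *Foxp3*, the factor that defines regulatory T cells, was detected in 176 stimulated WT cells, in which *Snhg6* stood at 112 CPM (98.9 to 127), against 116 CPM in the others.

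*Snhg6* was higher in the stimulated cells that also held RNA of some early activation genes, by amounts that differed between these genes. To keep depth even, this was read within cells of 12000 to 15000 UMIs, with state genes and depth chosen after values had been seen. In stimulated WT, cells with a UMI of *Cd69*, an early activation antigen, had 93.8 CPM of *Snhg6* against 50.7 CPM in cells without one, a log2 ratio of 0.89 (0.71 to 1.07), and 6.46% of genes were at least 1.5-fold higher in this split. Cells with *Egr2*, a transcription factor induced through the T cell receptor, had 106 against 69.3 CPM, a log2 ratio of 0.62 (0.50 to 0.74), with 4.37% of genes at least 1.5-fold higher. For *Il2*, the T cell growth factor, the values were 114 and 79.2 CPM and the log2 ratio 0.52 (0.37 to 0.67). This fell short of the 1.5-fold that 5.21% of genes passed. Other WT splits gave log2 ratios of 0.56 (0.44 to 0.69) for *Phlda1*, 0.31 (0.15 to 0.47) for *Il2ra* and 0.17 (0.01 to 0.33) for *Myc*.

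The knockout library showed the same directions for *Cd69*, *Egr2* and *Il2*. There *Snhg6* stood at 83.0 against 58.7 CPM for *Cd69*, 87.8 against 71.0 CPM for *Egr2* and 103 against 71.0 CPM for *Il2*. The log2 ratios were 0.50 (0.33 to 0.68) for *Cd69*, 0.31 (0.16 to 0.45) for *Egr2* and 0.54 (0.38 to 0.70) for *Il2*. Whether they differ from those of WT was not tested, since the counting intervals of *Snhg6* are too narrow. *Nr4a1*, a nuclear receptor induced through the T cell receptor, gave 84.3 and 84.4 CPM in WT and 84.1 against 71.7 CPM in the knockout (log2 ratio 0.23, 0.09 to 0.37). Resting cells showed no such difference for *Cd69*, with 20.4 CPM on both sides at 3000 to 6000 UMIs. *Snhg12* lay nearer to 0 in the WT splits by *Cd69* (log2 ratio 0.15), *Egr2* (0.22) and *Il2* (0.21), but not in that by *Nr4a1* (0.22). In the knockout its log2 ratio was -0.02 for *Cd69*, 0.10 for *Egr2* and 0.20 for *Il2*, each with an interval that held 0. The side of each split on which the knockout cell with 42 *Snhg12* UMIs lay was not examined.

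**Figure D3:**
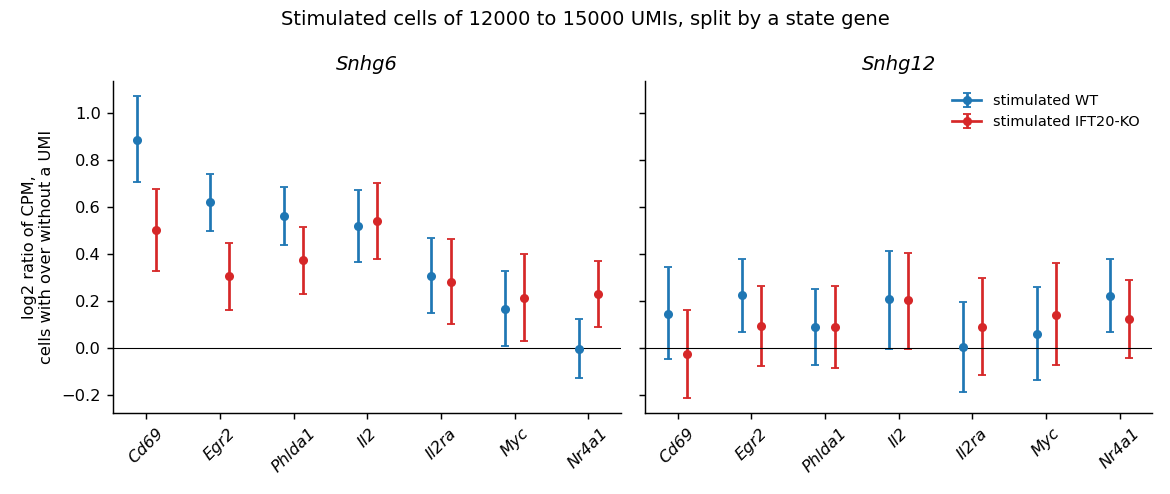
Log2 ratio of the level of *Snhg6* (left) and *Snhg12* (right) in cells with over cells without a UMI of each state gene on the horizontal axis, within stimulated cells of 12000 to 15000 UMIs, with 95% intervals of counting error. For *Snhg6* the ratio runs from 0.89 for *Cd69* to 0.00 for *Nr4a1* in stimulated WT, and the point of *Snhg12* for *Cd69*, at 0.15, lies nearer to 0.

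The genes whose pattern over the 3 libraries was most like that of each host were found among the 3435 genes with at least 50 CPM in any library, as the distance in the plane of both log2 ratios. For *Snhg6* they were *Nr4a1* at a distance of 0.21, *Phlda1* at 0.43 and *Egr2* at 0.45. All 3 are also among the state genes used above, which were chosen after values of these data had been seen. Neither reading is therefore separate support for the other. *Nr4a1* stood at 27.7, 159 and 113 CPM. *Phlda1* stood at 11.3, 58.6 and 47.2 CPM, and *Egr2* at 7.57, 56.7 and 41.2 CPM. None of these 3 was as low in the knockout as *Snhg6*, with log2 ratios of -0.50, -0.31 and -0.46 against -0.71. For *Snhg12* the nearest were *Raly*, *Maz* and *Atxn7l3b*, all within 0.026. That 3 values describe a gene's pattern is little, and many genes lie near *Snhg12*.

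The neighbours of both hosts were read because a shared stretch of genome could share reads. *Mcmdc2* overlaps *Snhg6* by 127 bp on the opposite strand and had 13, 30 and 25 UMIs, far fewer than the host. *Trnau1ap*, which encodes a protein that binds selenocysteine tRNA, ends 738 bp from *Snhg12* on the opposite strand and stood at 44.3, 126 and 111 CPM. Its log2 ratio with stimulation was 1.51 (1.43 to 1.58), above the 0.28 of *Snhg12*.

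Which hosts can be read at all follows from the feature table. Of 24 noncoding genes that hold a snoRNA annotated under a numbered *Snord*, *Snora* or *Scarna* name, 8 have a row in it. These are 5 of 5 of the lincRNA biotype, 2 of 2 antisense genes and 1 of 17 of the processed transcript biotype. That last biotype as a whole has rows for 10 of 790 genes, against 5459 of 5854 for lincRNA, and the 1507 snoRNA genes have 0. *Gas5*, *Snhg1*, *Snhg3*, *Snhg5*, *Snhg8* and *Snhg15* are annotated as processed transcripts. *Snhg4* has no gene of that name in the annotation used, and rows were sought by name only. Protein-coding hosts have rows for 71 of 72.

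Among the other noncoding hosts with a row, levels were at most 45.2 CPM. In the order of the libraries used above, *Snhg20* stood at 24.2, 26.9 and 29.7 CPM, with log2 ratios of 0.15 for stimulation and 0.14 for the knockout. *Epb41l4aos* stood at 45.2, 29.9 and 29.4 CPM, and its log2 ratio with stimulation, -0.60, passed 1.5-fold downward. *2700038G22Rik*, at 7.81, 14.7 and 18.6 CPM, had log2 ratios of 0.91 (0.73 to 1.09) and 0.34 (0.25 to 0.43). *1810032O08Rik* was level, at 17.2, 16.5 and 16.5 CPM. *Snhg10* stood at 2.29, 3.20 and 3.08 CPM, *Snhg9* had 3, 3 and 0 UMIs, *Snhg11* had 0, 0 and 1, and *Snhg18* had 0 in each library. The tested noncoding genes with a numbered *Snord*, *Snora* or *Scarna* gene inside were 6, without *Snhg20* and *Epb41l4aos*. Of these 6, 2 were at least 1.5-fold higher with stimulation, beside 28.6% of all tested genes, and the median log2 ratio was 0.38. In the knockout 1 of the 6, *Snhg6*, was at least 1.5-fold lower, beside 3.27% of all tested genes, and the median was 0.02.

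Protein-coding hosts went in both directions. With stimulation, 22 of 67 tested were at least 1.5-fold higher and 7 lower, with a median log2 ratio of 0.11, beside 28.6% higher and 34.3% lower and a median of -0.09 over all tested genes. Ribosomal protein genes were called, here and below, by a symbol of *Rpl* or *Rps* followed by a digit. That rule leaves out *Rpsa* and takes in *Rps6kb1*, a kinase gene. The 22 hosts called so had 4 higher, 3 lower and a median of -0.01. The level of *Rps2*, a small subunit protein gene, went from 4930 to 10124 CPM (log2 ratio 1.04), while *Rpl13a*, which hosts a run of box C/D snoRNAs, went from 481 to 183 CPM (-1.40) and *Rpl39* from 4599 to 1782 CPM (-1.37). The other 45 had 18 higher and 4 lower, and the highest were *Ncl*, the nucleolar protein nucleolin, from 294 to 1485 CPM (2.34), and *Rcc1*, the exchange factor of the GTPase Ran, from 14.4 to 67.1 CPM (2.22). Genes called ribosomal by that rule made up 31.6%, 27.5% and 27.3% of all UMIs in the 3 libraries. In the knockout 1 of the 67 was at least 1.5-fold higher and 0 were lower, beside 13.4% and 3.27% of all tested genes. The higher one was *Srcap*, a chromatin remodelling ATPase, at 21.6 CPM in stimulated WT and 33.7 CPM in the knockout. The median of the 67 was 0.01, which becomes -0.15 with median-ratio scaling.

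The mRNAs of proteins that bind snoRNAs were higher after stimulation, and the proteins themselves were not measured. The mRNAs of all 4 core proteins of the box C/D particle were at least 2-fold higher, with a median log2 ratio of 1.56. *Fbl*, the methyltransferase fibrillarin, stood at 236 CPM in unstimulated and 601 CPM in stimulated WT cells, and *Nop58* at 93.5 and 376 CPM. The mRNAs of all 4 core proteins of the box H/ACA particle were at least 1.5-fold higher, with a median of 1.95. *Dkc1*, the pseudouridine synthase dyskerin, went from 69.2 to 216 CPM, *Gar1* from 63.9 to 312 CPM, and *Nop10*, the least, from 376 to 578 CPM. Among the mRNAs of 14 factors that assemble these particles, 12 were at least 1.5-fold higher and 0 lower, with a median of 1.29. *Naf1* was at the top, from 9.16 to 51.9 CPM. The shares at 1.5-fold stand beside 28.6% of all tested genes, and the share at 2-fold beside 19.3%.

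The same mRNAs differed little in CPM between the stimulated libraries. *Fbl* stood at 585 CPM in the knockout (log2 ratio -0.04), *Nop58* at 351 CPM (-0.10), *Dkc1* at 209 CPM (-0.05) and *Gar1* at 276 CPM (-0.18). None of these 4, 4 and 14 genes passed 1.5-fold in either direction, beside 13.4% of all tested genes higher and 3.27% lower. The medians were -0.10 for box C/D, -0.11 for box H/ACA and 0.00 for assembly. All 4 box C/D and all 4 box H/ACA core mRNAs lay below 0, whereas 68.3% of all tested genes lay above it, with a median of 0.14. Scaling by median ratios shifts each of these log2 ratios by -0.16. Over all cells, the log2 ratio of *Snhg6*, -0.71, lies below the lowest of these mRNAs, -0.26 for the cap-binding subunit *Ncbp2*. Within depth classes that of *Snhg6* ran from 0.02 under 3000 UMIs to -0.65 at 21000 or more. These mRNAs were not split by depth, so the 2 were not compared at like depth.

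Shares near those of all genes, of which 28.6% were at least 1.5-fold higher and 34.3% lower with stimulation, were found for nonsense-mediated decay. Of its 18 genes, 5 were higher and 6 lower by this rule, with a median log2 ratio of 0.05. *Magoh*, a core protein of the exon junction complex, went from 74.9 to 158 CPM (1.07), and *Pnrc2*, which ties decay factors to decapping, from 50.2 to 19.7 CPM (-1.35). Of 14 tested genes of nuclear RNA decay and of lariat debranching, the step that frees an intron for snoRNA processing, 8 were higher and 1 lower, with a median of 0.76. *Dis3*, an exosome nuclease, went from 12.7 to 48.5 CPM. In the knockout, 0 of the genes of either list passed 1.5-fold, beside 13.4% of all tested genes higher and 3.27% lower. The medians were 0.09 and 0.01. Of 8 regulators of TOP mRNA, 3 were higher with stimulation, led by *Eif4ebp1*, a translation repressor that mTOR inactivates, from 12.5 to 310 CPM (4.63), and 1 was lower, *Eif4ebp2* (-1.04). In the knockout *Rptor*, the mTOR complex subunit raptor, was the one of these 8 past 1.5-fold, at 23.1 against 15.1 CPM (0.61). The shares of all tested genes in the knockout, 13.4% higher and 3.27% lower, stand beside it.

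**Figure D4:**
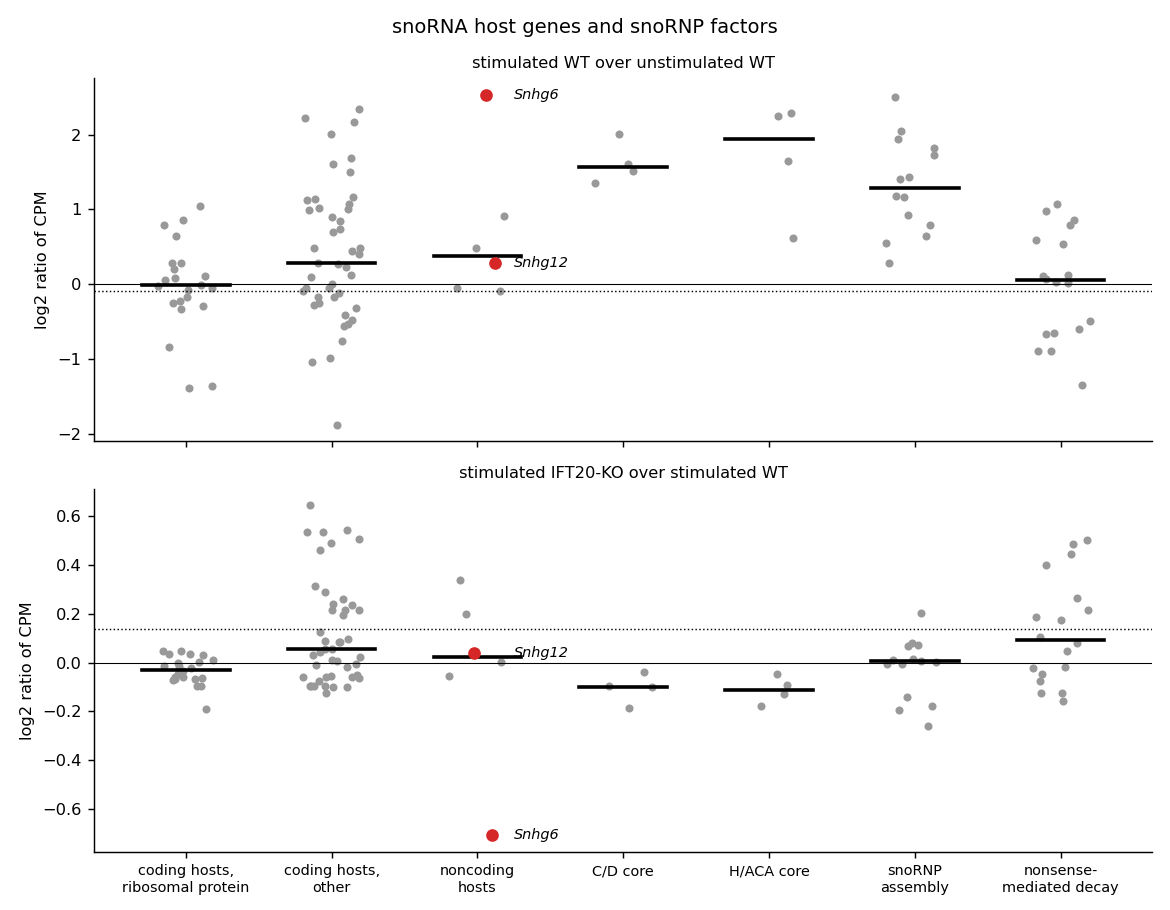
Log2 ratios of CPM (vertical axes, of unlike range) of tested genes in 7 groups of snoRNA hosts and snoRNA-binding or decay factors, stimulated over unstimulated WT (top) and stimulated IFT20-KO over stimulated WT (bottom), with 1 point per gene, group medians as thick bars and the median of all tested genes as a dotted line. *Snhg6* is the top noncoding host at 2.53 in the first comparison and the lowest point of the second, at -0.71.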

How the data were processed

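For 3 libraries of 1 condition each, the values deposited by the authors are raw counts, that is UMIs of each gene in each called barcode. Per the file headers they were made with Cell Ranger 3.1.0, and the labels name mm10. The labels name a 5′ kit and the methods a 3′ kit, which read opposite ends of a transcript, so levels are not comparable between genes by length. Doublets were not removed. The barcode filter (over 200 genes, mitochondrial share below 15%) left out 222, 417 and 12 barcodes. UMIs were summed per library and scaled to CPM. Intervals are exact Poisson for CPM, exact Clopper-Pearson for shares and exact binomial for ratios, and genes whose UMIs sum to 10 or more in a pair of libraries count as tested. With 1 library per group, no p-value was computed. Barcodes thinned to 1400 UMIs kept 7230, 9482 and 13920 cells. Hosts are genes with a numbered *Snord*, *Snora* or *Scarna* gene inside them on the same strand in GENCODE M21. Annotated snoRNA genes under other names were not used to call hosts.

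The members and the gene lists were chosen with earlier results of these data known. Genes named are the members, *Ift20*, overlapping genes, the highest and lowest 2 of each list at 20 CPM or more, and the 3 nearest in pattern. Other genes, the depth classes and the state genes were chosen after values were seen. Alternatives covered scaling, the barcode filter, thinning, cells with most UMIs and the UMI minimum. Calculations used Python 3.11.15, numpy 2.4.6, scipy 1.17.1 and pandas 2.3.3, and plots used matplotlib 3.10.9. The code for the ratio intervals was run on simulated data with counting error alone. That run checks the code and cannot show that the intervals are wide enough for counts that vary more, as those of *Snhg6* and *Snhg12* do. Some listed marker genes are not reported here.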

Additional observations from a re-analysis of the deposited data

Results flagged for a closer look

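*Snhg6* was also found in the barcodes that the filter left out of the stimulated WT library, which no comparison above uses. In these 417 barcodes it stood at 71.5 CPM (53.7 to 93.3, 54 UMIs), above the 5.23 CPM (0.132 to 29.1, 1 UMI) of the 222 barcodes left out of the unstimulated library. *Snhg12* stood at 144 CPM (119 to 174) and 110 CPM (67.9 to 168) in the same barcodes, with overlapping intervals. The source of these UMIs was not tested.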

How the results depend on the processing

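The median log2 ratio of *Snhg6* and *Snhg12* with stimulation, 1.40 as reported, was 1.54 with median-ratio scaling, 2.76 as UMIs per cell (where 2 hosts were at least 1.5-fold higher), 1.30 without ribosomal protein and mitochondrial genes in the total and 1.30 with cells thinned to 1400 UMIs. In cells of 3000 to 9000 UMIs it was 0.52, with *Snhg12* at -0.16, in those of 9000 to 18000 UMIs 1.18, in those of 9000 to 12000 UMIs 0.60 and in those under 3000 UMIs 1.56 (2 hosts at least 1.5-fold higher). For the knockout the median, -0.33 as reported, was -0.49 with median-ratio scaling, -0.96 as UMIs per cell (where 2 hosts were at least 1.5-fold lower), -0.28 as the mean of per-cell fractions and -0.23 after thinning. By depth it was 0.21 in cells of 3000 to 9000 UMIs (1 host at least 1.5-fold higher, 0 lower), -0.21 at 9000 to 18000 (0 lower), -0.39 at 18000 or more (0 lower), -0.45 at 21000 or more, -0.0051 at 9000 to 12000 (0 lower) and -0.22 under 3000 (0 lower), where the log2 ratio of *Snhg6* was 0.022. The cause of these differences was not tested beyond the construction of each setting. *Snhg6* stayed above 0 with stimulation under all 16 settings run, from 1.13 to 3.88, and above 0 in the knockout under 1 of 18, the range being -1.34 to 0.02. *Snhg12* ranged from -0.16 to 1.63 and from -0.59 to 0.61. Settings that change only the UMI minimum cannot move the ratio of a gene. Some depth classes also lie within others, so the settings are not all separate checks. The depth classes and the 5% mitochondrial limit were chosen after seeing the data. No paired analysis was possible because each group has 1 library.

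The limits are those of 1 library per condition, of a feature table that covers 2 of the 9 listed genes, and of depth. The unstimulated library had 748 UMIs of *Snhg6* and 268 cells of 9000 to 18000 UMIs.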
